A study of Mus musculus with 22 samples.

Results

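Ribosome-bound RNA from the prefrontal cortex (PFC) of mice given ethanol together with the PARP inhibitor ABT-888 was compared with that of mice given normal saline. The comparison holds 7 TRAP libraries, 4 of EtOH + ABT-888_TRAP (mice 3, 6, 10 and 11) and 3 of Control_TRAP (mice 1, 4 and 7), out of 22 libraries in the series. They were chosen by the treatment and pull-down named in their labels. In TRAP, ribosomes that carry a tagged subunit are pulled down from a tissue lysate and the RNA held on them is sequenced. All mice were transgenic males of 8 to 12 weeks on a C57BL/6J background, from a cross of a tetO-EGFP/Rpl10a line with a CaMKIIα-tTA line, so the tagged ribosomes depend on the activity of the CaMKIIα promoter in the driver line. Control mice received saline i.p. in 2 injections per day for 4 days. EtOH + ABT-888 mice received ethanol to 2 g/kg per day on the same schedule, with ABT-888 at 25 mg/kg added on day 4 only. The PFC was taken 2 h after the last injection. No group received ABT-888 without ethanol, so the comparison with Control holds both agents at once. Total-RNA from the lysate of the same mice and EtOH_TRAP (4 mice given ethanol alone) were used beside it. Each library came from 1 mouse, so n counts mice.

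PARP enzymes attach chains of ADP-ribose to proteins, act in DNA repair and chromatin control, and are blocked by ABT-888 (veliparib). In forebrain neurons, transcripts that change within hours of a treatment include those switched on by synaptic activity, among them growth factors and transcription factors, and those switched on by the glucocorticoid receptor, which responds to stress hormone. The amount of a transcript on tagged ribosomes depends both on how much of it the cell holds and on how strongly it is engaged with ribosomes. In a tissue sample, fewer cells of a type and less RNA per cell cannot be told apart.

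Between 6570957 and 21080724 reads were counted in the 7 libraries, with the fewest in mouse 6 (EtOH + ABT-888). Control_TRAP libraries resembled each other more closely, with a mean Pearson's r of 0.974 to 0.977 to the others of their group across transcripts, than EtOH + ABT-888_TRAP libraries, with 0.932 to 0.950. Transcripts of one library are not independent, so these values describe the libraries only. After the study's filter, 14072 transcripts were tested. Levels are CPM, read counts scaled to a common library size, after TMM scaling, a correction for library composition. The term "called" means a Benjamini-Hochberg adjusted p-value under 0.05 in edgeR's quasi-likelihood test.

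The marker genes went partly against the label of cortical excitatory neurons. Each of the 13 markers of striatal projection neurons was higher in Control_TRAP than in Control_total-RNA, by a ratio of 5.34 (Pde10a) to 12.8 (Six3). Their summed level was 14319 to 17282 CPM in Control_TRAP, 14677 to 17456 CPM in EtOH + ABT-888_TRAP and 1871 to 2364 CPM in Control_total-RNA. Of the pyramidal neuron markers, Slc17a7, Neurod6, Tbr1, Emx1 and Neurod2 were lower in Control_TRAP than in Control_total-RNA, with ratios of 0.215 to 0.574. Camk2a, the kinase whose promoter drives the tag, had a ratio of 0.900, and the postsynaptic protein gene Nrgn was higher in Control_TRAP, with 2.32. Per kilobase of exon, Control_TRAP levels ran from 4.18 CPM (Isl1) to 1962 CPM (Penk) among the striatal markers and from 2.63 CPM (Emx1) to 2189 CPM (Nrgn) among the pyramidal markers, so the 2 lists overlapped in level. The libraries are therefore called TRAP libraries below and are not taken as pure pyramidal neurons.

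**Figure D1:**
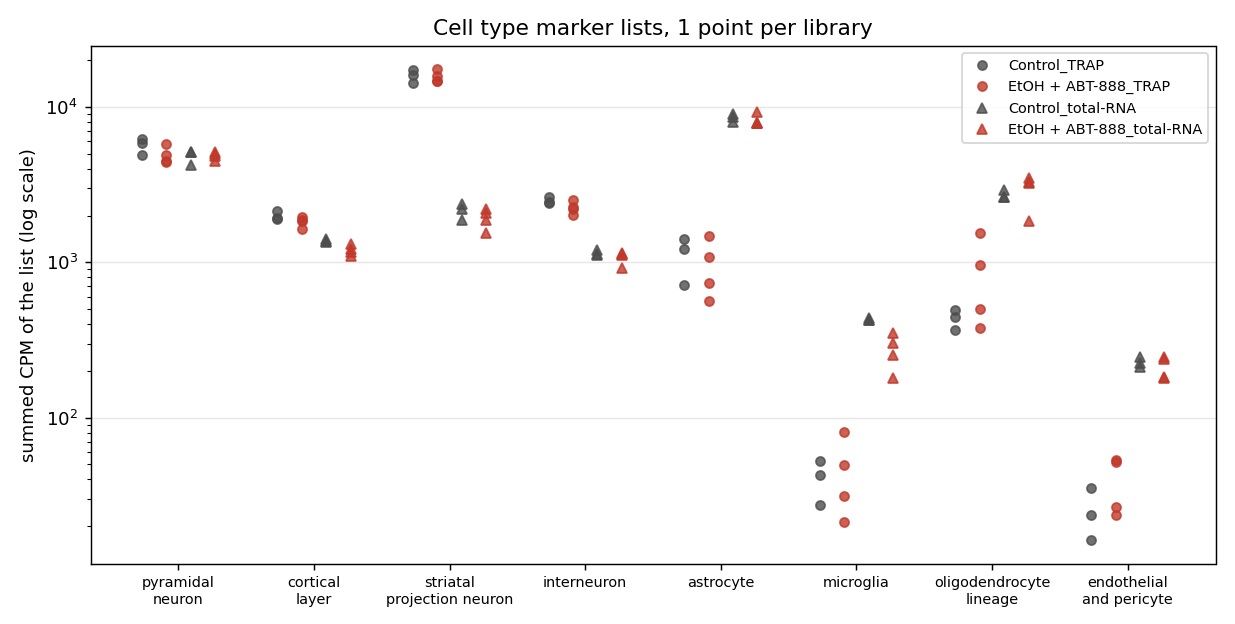
Summed CPM of 8 marker lists on a log axis, with 1 point per library, for Control (grey) and EtOH + ABT-888 (red) in TRAP (circles) and total-RNA (triangles). Striatal projection neuron markers lie at 14319 to 17456 CPM in TRAP and at 1551 to 2364 CPM in total-RNA, and the TRAP points of the 2 treatments overlap in every list.

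The kappa opioid receptor Oprk1, the transcription factor Ets2, the calcium exchanger Slc24a4 and the metallothioneins Mt1 and Mt2 rose in EtOH + ABT-888_TRAP against Control_TRAP. The matrix protein Coch, the semaphorin Sema7a, the neuritin Nrn1 and the G protein regulator Rgs4 fell. Of 14072 transcripts tested, 67 were called (0.476%), 26 higher (0.185%) and 41 lower (0.291%). The higher transcripts rose by a median log2 fold change of 1.37, and the lower ones had a median of -1.24, with a range from -2.20 (Ighm) to -0.76 (Cacng3). Of the 67, 65 are protein-coding. Their Control_TRAP means ran from 2.21 CPM (Hist3h2bb-ps) to 2089 CPM (Rgs4), leaving out Lcn2, which had no read in Control_TRAP. In each of the 67, all 4 EtOH + ABT-888 mice lay outside the range of the 3 Control mice. Over all transcripts tested this was so in 1967 (14%). At an unadjusted p under 0.05, 889 transcripts (6.32%) were higher and 807 (5.73%) lower, and the lists below are read beside these shares.

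The number of calls depended on single libraries. Leaving out mouse 1, 4, 6, 7 or 11 gave 0 calls by edgeR's quasi-likelihood test, with 1015 to 1664 transcripts at an unadjusted p under 0.05 and 90 to 272 calls by edgeR's exactTest. Leaving out mouse 3 gave 373 calls and leaving out mouse 10 gave 177, with all 67 among them each time. The direction of each of the 67 was the same in all 7 of these fits. A single fit over the 11 TRAP libraries, EtOH_TRAP included, called 33 transcripts, 26 higher and 7 lower, and 30 of the 67 kept their call there.

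**Figure D2:**
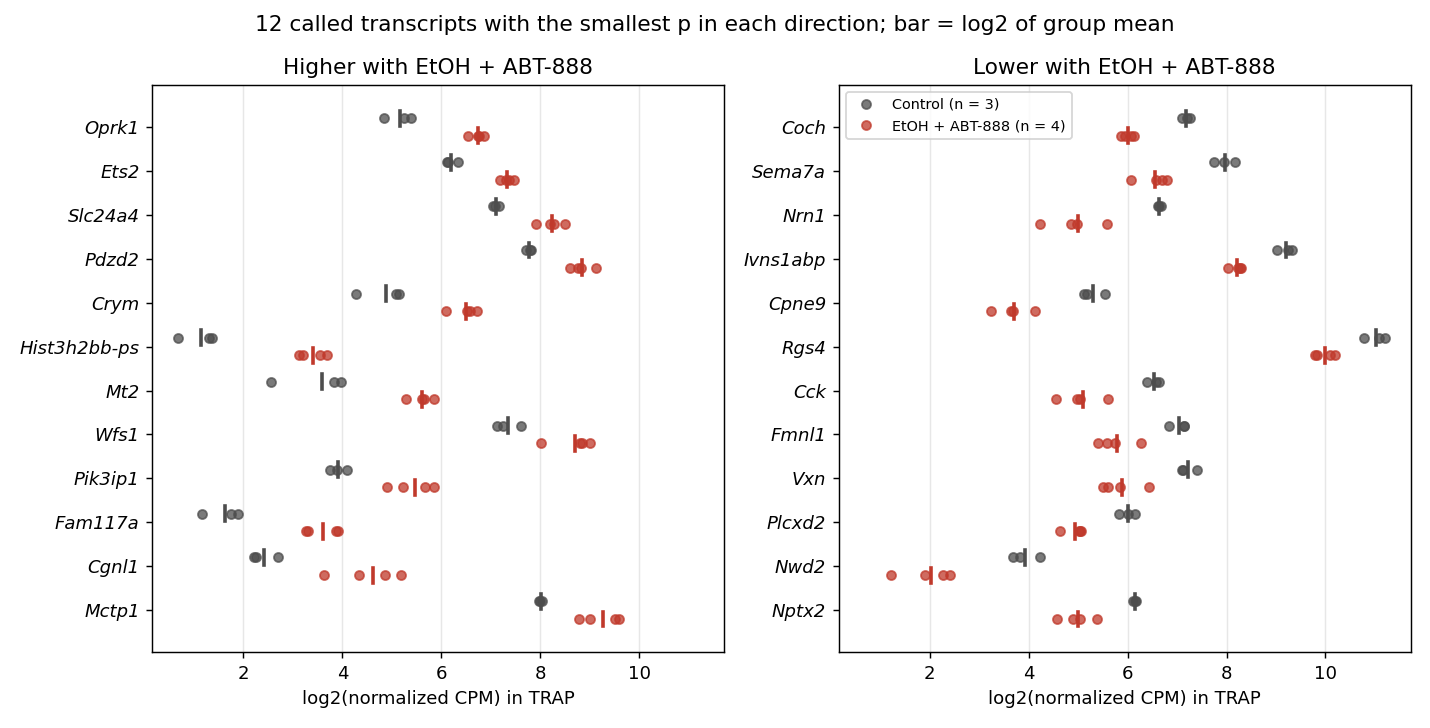
Normalized CPM in TRAP on a log2 axis for the 12 called transcripts with the smallest p in each direction, with 1 point per mouse (grey, Control, n = 3; red, EtOH + ABT-888, n = 4) and a bar at the log2 of the group mean. The red and grey points do not overlap for any of the 24 transcripts.

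Among receptors and signalling proteins, Oprk1, the kappa opioid receptor for dynorphin, had the smallest p-value. It lies on chromosome 1 from 5588466 to 5606131 of mm10, the build of all positions given here. Control_TRAP libraries held 28.6, 41.6 and 37.8 CPM and EtOH + ABT-888_TRAP libraries 109, 108, 116 and 93.1 CPM (log2 fold change 1.58, SE 0.18, adjusted p = 0.0197). The 4 treated mice lay within a narrow band at about 3 times the Control level. In EtOH_TRAP, Oprk1 was more spread, at 60.8, 161, 108 and 88.1 CPM. The other 6 members of the opioid list that were tested did not pass the test. The mu receptor Oprm1 was at 8.54, 6.31 and 9.73 CPM in Control_TRAP and 21.4, 23, 4.96 and 8.79 CPM in EtOH + ABT-888_TRAP, with the mice 3 and 6 above and the mice 10 and 11 within or below the Control range. Pdyn, which encodes the precursor of dynorphin, was at 152, 197 and 148 CPM and 246, 90.7, 205 and 179 CPM, and these ranges overlapped.

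Hrh3, the histamine receptor that curbs transmitter release, rose from 124 ± 18.8 to 220.2 ± 13.7 CPM (SD; log2 fold change 0.84, SE 0.16, adjusted p = 0.0413). Rgs14 and Rgs4 both encode regulators that shorten G protein signals, and they moved in opposite directions. Rgs14 was at 50.4, 50.8 and 43.8 CPM in Control_TRAP and 84.7, 82.3, 104 and 100.4 CPM in EtOH + ABT-888_TRAP (log2 fold change 0.96, SE 0.17, adjusted p = 0.0322). Rgs4, on chromosome 1 from 169741477 to 169747642, was at 2177, 2342 and 1748 CPM and 909, 887, 1173 and 1085 CPM (log2 fold change -1.03, SE 0.16, adjusted p = 0.0258). All treated mice were above the Control mice for Rgs14 and below them for Rgs4. Rgs6, of the same family, fell as well (log2 fold change -1.0, SE 0.20, adjusted p = 0.0497). Of the 36 tested members of the list of cAMP cyclases, phosphodiesterases and RGS proteins, 1 was called higher and 1 lower, Rgs14 and Rgs4, and at an unadjusted p under 0.05 there were 3 higher and 6 lower. Rgs6 was not on that list. The list's median log2 fold change was -0.10, against 0.02 over all transcripts.

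Other signalling transcripts rose. Pik3ip1, an inhibitor of PI3 kinase, was at 13.4, 14.9 and 17 CPM in Control_TRAP and 37.6, 57.8, 30.0 and 51.3 CPM in EtOH + ABT-888_TRAP (log2 fold change 1.56, SE 0.25, adjusted p = 0.0277). Camk1g, a calcium/calmodulin-dependent kinase, went from 31.3 ± 4.87 to 64.3 ± 9.16 CPM (SD; log2 fold change 1.05, SE 0.19, adjusted p = 0.0348). Ppp1r2, an inhibitor subunit of protein phosphatase 1, was the most variable of this group in the treated mice, at 219.9, 336, 578 and 308 CPM against 133, 106 and 129.7 CPM in Control_TRAP (log2 fold change 1.57, SE 0.28, adjusted p = 0.0335). All 4 treated mice were nevertheless above all 3 Control mice. Arrdc3, an arrestin-like adaptor of receptor trafficking (log2 fold change 1.28, SE 0.24, adjusted p = 0.0437), Tgfbr3, a co-receptor for TGF-beta (log2 fold change 0.86, SE 0.17, adjusted p = 0.0482), and Spata13, a guanine nucleotide exchange factor (log2 fold change 0.97, SE 0.18, adjusted p = 0.0371), also rose.

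Ets2, a transcription factor downstream of Ras and MAP kinase signalling on chromosome 16 from 95702075 to 95721051, was at 70.4, 69 and 80.7 CPM in Control_TRAP and 159.5, 145, 165 and 177 CPM in EtOH + ABT-888_TRAP (log2 fold change 1.15, SE 0.15, adjusted p = 0.0206). Slc24a4, a potassium-dependent sodium/calcium exchanger on chromosome 12 from 102128733 to 102267091, was at 143, 135 and 132 CPM and 243, 294, 364 and 309 CPM (log2 fold change 1.16, SE 0.17, adjusted p = 0.0223). It was the only one of the 11 tested calcium extrusion transporters to be called. The list's median log2 fold change was -0.20, and at an unadjusted p under 0.05 the other member was Slc8a1 (log2 fold change -0.75). Mctp1, a membrane protein with calcium-binding C2 domains, was at 264, 253 and 257 CPM in Control_TRAP, a spread of a few percent, and at 443, 734, 775 and 514 CPM with EtOH + ABT-888 (log2 fold change 1.27, SE 0.21, adjusted p = 0.0277).

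Crym binds thyroid hormone in the cytosol, and it lies on chromosome 7 from 120186380 to 120202111. It was at 34, 19.4 and 35.3 CPM in Control_TRAP and 96.3, 68.4, 106 and 91.2 CPM in EtOH + ABT-888_TRAP (log2 fold change 1.63, SE 0.24, adjusted p = 0.0223), while its log2 fold change in total-RNA was 0.17 (adjusted p = 0.463). Wfs1, a membrane protein of the endoplasmic reticulum on chromosome 5 from 36966104 to 36989205, was at 139.8, 151 and 195 CPM and 459.9, 259.5, 512 and 445 CPM (log2 fold change 1.38, SE 0.22, adjusted p = 0.0277), with 0.42 in total-RNA (adjusted p = 0.0995). Mouse 6 was the lowest of the treated mice for both. The difference between TRAP and total-RNA did not pass the test for Crym (adjusted p = 0.22) or Wfs1 (adjusted p = 0.732). A fit of this difference that blocked on the mouse gave adjusted p of 0.0548 and 0.17.

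The 2 metallothioneins, small cysteine-rich proteins that bind zinc and copper and are induced by metals and by glucocorticoids, rose together. Mt1 lies on chromosome 8 from 94179082 to 94180327 and Mt2 on chromosome 8 from 94172664 to 94173568, next to each other on the same strand. Mt1 was at 78.4, 49.7 and 76.1 CPM in Control_TRAP and 140.2, 162, 335 and 230.2 CPM in EtOH + ABT-888_TRAP (log2 fold change 1.69, SE 0.29, adjusted p = 0.0322). Mt2 was at 14.3, 5.87 and 15.7 CPM and 50.5, 39, 57.7 and 48.6 CPM (log2 fold change 2.05, SE 0.31, adjusted p = 0.0238). For both, mouse 4 was the lowest of the Control mice and mouse 10 the highest of the treated mice. Their promoters are shown because they are the called pair of the glucocorticoid list and carry a motif with a known binding factor. Both windows are from RefSeq on GRCm38.p6, plus strand, 250 bases before to 50 bases after the start in RefSeq. That start differs from the gene starts given above, which are from another annotation (GENCODE). Capitals mark the core of the metal response element (TGCACNC or TGCGCNC on either strand), which is bound by the zinc-sensing factor Mtf1:
Mt1, chr8:94178839-94179138: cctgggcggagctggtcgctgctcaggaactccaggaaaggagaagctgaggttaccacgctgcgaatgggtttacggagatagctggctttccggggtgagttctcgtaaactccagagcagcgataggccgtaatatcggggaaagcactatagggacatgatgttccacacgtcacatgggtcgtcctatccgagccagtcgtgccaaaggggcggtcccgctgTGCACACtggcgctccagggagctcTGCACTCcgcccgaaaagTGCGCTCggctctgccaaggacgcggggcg
Mt2, chr8:94172368-94172667: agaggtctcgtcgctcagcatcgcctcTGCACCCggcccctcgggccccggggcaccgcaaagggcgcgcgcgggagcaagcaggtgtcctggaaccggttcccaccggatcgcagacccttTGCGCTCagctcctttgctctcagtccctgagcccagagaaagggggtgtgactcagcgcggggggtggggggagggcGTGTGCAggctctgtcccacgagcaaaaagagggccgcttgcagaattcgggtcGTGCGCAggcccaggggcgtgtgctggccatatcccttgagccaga
The Mt1 window held 3 matches and the Mt2 window 4. Such a match stood in 25.6% of all 27025 promoters of this length and in 37.3% of those of tested transcripts. RefSeq windows were matched for 47 of the 67 called genes, and the motif stood in 6 of 20 that were higher and 8 of 27 that were lower (30% and 29.6%). The palindromic cAMP response element, TGACG followed by TCA, stood in 0 of the 47, against 1.88% of all promoters and 3.3% of those of tested transcripts. The matches are descriptions of letters and do not show binding.

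Secreted and lipid-binding proteins followed. Lcn2, a lipocalin that binds iron-carrying siderophores, had 0 reads in each Control_TRAP library and 6, 32, 83 and 69 reads in EtOH + ABT-888 mice 3, 6, 10 and 11 (0.492, 4.8, 4.38 and 4.3 CPM). Against a floor of 3 reads per Control library, the lower bound on the rise of its mean was about 16-fold (adjusted p = 0.0335). Mouse 3 was far below the other 3. Apod, a lipocalin of glia that carries lipids, was at 12.9, 5.87 and 13 CPM in Control_TRAP and 33.5, 37.8, 42.3 and 81.1 CPM with EtOH + ABT-888 (log2 fold change 2.22, SE 0.36, adjusted p = 0.0277). The 14 oligodendrocyte markers, none of them called, all had a log2 fold change above 0, with a median of 0.71. Their summed level was 958 CPM in mouse 3, 376 CPM in mouse 6, 501 CPM in mouse 10 and 1549 CPM in mouse 11, against 369 to 496 CPM in Control_TRAP, and none of them was at 0. Mouse 11 was the highest for Apod and for these markers, while mouse 3, next highest for the markers, had the lowest treated Apod. In total-RNA, Apod had a log2 fold change of 1.55 (adjusted p = 0.0836) and the markers a median of -0.008. The part of these markers in the Apod value was not tested. In the fit with the mean of glial and vascular markers as a covariate, 171 transcripts were called and all 67 were among them. That covariate averages astrocyte, microglial, oligodendrocyte and vascular markers together, so it cannot separate 1 of these cell types from the others.

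The other transcripts that rose have varied roles. Pdzd2, a PDZ domain scaffold, was at 226, 209 and 222 CPM in Control_TRAP and 562, 451, 389.6 and 436 CPM with EtOH + ABT-888 (log2 fold change 1.08, SE 0.16, adjusted p = 0.0223). Cgnl1, a protein of cell junctions, was at 6.51, 4.76 and 4.66 CPM and 12.4, 29.3, 36.4 and 20.2 CPM (log2 fold change 2.24, SE 0.36, adjusted p = 0.0277). Fam117a was at 2.24, 3.38 and 3.7 CPM and 9.84, 9.61, 14.6 and 15 CPM (log2 fold change 1.98, SE 0.32, adjusted p = 0.0277). Hist3h2bb-ps, a histone H2B pseudogene at 2.45, 1.61 and 2.56 CPM in Control_TRAP, was at 9.18, 11.7, 8.71 and 12.9 CPM in the treated mice (log2 fold change 2.28, SE 0.34, adjusted p = 0.0223), and since histone H2B genes have near-identical sequences its counts are uncertain. Ptcd1 (log2 fold change 0.99), N4bp2 (1.68), Fam126a (1.36) and the actin-binding Cotl1 (1.19) completed the 26.

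Of the transcripts that fell, Coch, Sema7a and Nrn1 had the smallest p-values. Coch, an extracellular matrix protein on chromosome 12 from 51593341 to 51605771, was at 147, 152 and 137 CPM in Control_TRAP and 70.0, 58.5, 61.6 and 66.8 CPM with EtOH + ABT-888 (log2 fold change -1.17, SE 0.15, adjusted p = 0.0206). Sema7a, a membrane-anchored semaphorin that guides axons, lies on chromosome 9 from 57940112 to 57962865 and was at 247, 287 and 215 CPM and 111, 66.9, 94.9 and 104 CPM (log2 fold change -1.40, SE 0.18, adjusted p = 0.0206). Nrn1, the membrane-anchored protein neuritin, which promotes neurite growth, lies on chromosome 13 from 36725361 to 36735131 and was at 102, 99.8 and 97.8 CPM in Control_TRAP. With EtOH + ABT-888 it was at 47.7, 18.8, 28.9 and 31.5 CPM (log2 fold change -1.64, SE 0.24, adjusted p = 0.0223), lowest in mouse 6. Sema7a was the only one called of 29 tested semaphorins, plexins and neuropilins. At an unadjusted p under 0.05 that list had 1 higher and 4 lower members, and its median log2 fold change was -0.15.

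Cck, the neuropeptide cholecystokinin, was at 94.7, 83.5 and 99.3 CPM in Control_TRAP and 48.8, 32.9, 23.5 and 31.3 CPM with EtOH + ABT-888 (log2 fold change -1.43, SE 0.22, adjusted p = 0.0258). Nptx2, a secreted pentraxin that gathers AMPA receptors at synapses, was at 71.5, 71 and 69.3 CPM and 41.7, 29.7, 23.8 and 32.6 CPM (log2 fold change -1.13, SE 0.19, adjusted p = 0.0322). In EtOH_TRAP, Nptx2 was at 104, 26.8, 51.8 and 28.4 CPM, so that mouse 2 was above the Control range and mice 5, 8 and 9 were below it. With Nrn1, these were the 3 called members among the 25 tested of the neurotrophic and secreted plasticity list. That list had 0 members higher and 11 lower at an unadjusted p under 0.05, against 6.32% and 5.73% of all transcripts, and a median log2 fold change of -0.46. Bdnf, the growth factor of the list, was at 11.5, 8.53 and 12.9 CPM in Control_TRAP and 5.08, 1.5, 1.53 and 2.06 CPM in EtOH + ABT-888_TRAP. It missed the threshold (log2 fold change -2.10, SE 0.43, adjusted p = 0.0599) although all treated mice were below all Control mice. The prohormone convertase Pcsk1 (log2 fold change -1.28, adjusted p = 0.0764) and the secreted peptide precursor Vgf (-0.84, adjusted p = 0.187) also had lower means and missed it. Without mouse 7 the 11 became 6.

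Further surface or secreted proteins that fell were C1ql3 (log2 fold change -1.43), a C1q-like protein of synapses, Spon1 (-1.28), Olfm2 (-1.13), Megf11 (-1.68), the Nogo receptor Rtn4r (-1.17) and Car10 (-1.29). Ighm, the heavy chain of immunoglobulin M, fell by the largest amount, from 13.1, 16 and 16.1 CPM to 4.59, 4.8, 2.37 and 1.56 CPM (log2 fold change -2.20, SE 0.38, adjusted p = 0.0322). It is a product of B cells, which the marker lists do not cover.

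The potassium channel subunits Kcnh7 and Kcnv1 were called. Kcnh7 was at 185, 166 and 193 CPM in Control_TRAP and 104, 91, 70.2 and 101 CPM with EtOH + ABT-888 (log2 fold change -0.97, SE 0.17, adjusted p = 0.0322), and Kcnv1, a silent subunit that modifies other channels, at 122, 119 and 136 CPM and 70.4, 69.2, 42.5 and 64.5 CPM (log2 fold change -1.02, SE 0.19, adjusted p = 0.0413). Among 38 voltage-gated potassium channel transcripts tested, 1 was higher (Kcna1, log2 fold change 0.55) and 8 were lower at an unadjusted p under 0.05, with a median of -0.09. The 8 became 4 to 6 without mouse 1, 4, 6, 7 or 11, and 5 in the single fit over the 11 TRAP libraries. Cacng3, an auxiliary subunit of AMPA receptors, was at 208, 183 and 186 CPM and 116, 109.6, 115 and 108 CPM (log2 fold change -0.76, SE 0.14, adjusted p = 0.0374). The treated values of Cacng3 had the smallest SD relative to their mean of the 67.

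Grm2, a metabotropic glutamate receptor of axon terminals, fell from 15.8 ± 1.3 to 5.59 ± 1.47 CPM (SD; log2 fold change -1.48, SE 0.27, adjusted p = 0.0355). Rph3a, a Rab effector of synaptic vesicles, was at 510.1, 612 and 481 CPM in Control_TRAP and 352, 216, 225 and 223 CPM with EtOH + ABT-888 (log2 fold change -1.06, SE 0.18, adjusted p = 0.0322). Mouse 3 stood above the other treated mice for Rph3a. Cpne9, a calcium-dependent membrane-binding protein, was at 46.7, 36.2 and 34.6 CPM and 12.5, 12.8, 17.6 and 9.41 CPM (log2 fold change -1.56, SE 0.24, adjusted p = 0.025), and Cadps2, which primes dense-core vesicles, went from 48.2 ± 8.5 to 21.7 ± 3.84 CPM (SD; log2 fold change -1.13, SE 0.21, adjusted p = 0.0354).

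Among the transcription factors that fell, Neurod6 marks cortical excitatory neurons. Neurod6, on chromosome 6 from 55677822 to 55681263, was at 21.3, 17.7 and 25.4 CPM in Control_TRAP and 10.3, 4.5, 4.22 and 6.54 CPM with EtOH + ABT-888 (log2 fold change -1.73, SE 0.31, adjusted p = 0.0354). All treated mice were below all Control mice. It belongs to the list of 8 pyramidal neuron markers, 6 of which were lower at an unadjusted p under 0.05. The list's median log2 fold change was -1.02 in TRAP and -0.21 in total-RNA. In total-RNA, 2 members were higher and 3 lower at an unadjusted p under 0.05. Neurod6 was the 1 member called there (log2 fold change -0.80, adjusted p = 0.0471). Slc17a7, the vesicular glutamate transporter of these neurons, was at 352, 455 and 429 CPM in Control_TRAP and 308, 164, 179.9 and 196 CPM in EtOH + ABT-888_TRAP, lower in every treated mouse without passing the threshold (log2 fold change -0.95, SE 0.20, adjusted p = 0.0712). Its log2 fold change in total-RNA was 0.00. Camk2a went the other way, at 1888, 2029 and 1732 CPM and 1974, 1951, 2950.2 and 2291 CPM (log2 fold change 0.30, adjusted p = 0.509). The 13 striatal markers had a median of 0.07, with 2 lower and 0 higher at an unadjusted p under 0.05. Whether the lower level of pyramidal markers has a part in the other transcripts that fell was not tested.

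Crem and Klf10 were the called members of the immediate early list, genes that neurons switch on within minutes to hours of synaptic activity. Crem, which encodes activators and repressors at cAMP response elements, was at 29.8, 27.8 and 30.1 CPM in Control_TRAP and 15, 12, 10.4 and 15 CPM with EtOH + ABT-888 (log2 fold change -1.15, SE 0.21, adjusted p = 0.0354). Klf10, a zinc finger repressor, was at 31.1, 42.5 and 34.3 CPM and 19.3, 13.8, 16.1 and 16.5 CPM (log2 fold change -1.12, SE 0.20, adjusted p = 0.0335). Of 35 tested members, 13 were lower and 2 higher (Jun and Klf4) at an unadjusted p under 0.05. The median log2 fold change was -0.65, against -0.23 in total-RNA. By the same criterion 11 members were higher and 8 lower in total-RNA, against 8.55% and 7.39% of all transcripts. The tested difference between the sample types was lower in TRAP for 8 members and higher for 1, against 2.26% and 1.62% of all transcripts. Npas4, a factor induced by calcium entry, was at 20.6, 4.1 and 36.5 CPM and 4.84, 1.8, 2.22 and 2.68 CPM (log2 fold change -2.80, adjusted p = 0.0594). Its Control values spread widely, and mouse 4 lay just below the highest treated mouse. Egr1 was at 603, 492 and 537 CPM in Control_TRAP and 484, 209, 171 and 186 CPM with EtOH + ABT-888 (log2 fold change -1.04, adjusted p = 0.17), and Arc at 117, 53.9 and 131 CPM and 115, 19.1, 23.3 and 31.4 CPM (-1.09, adjusted p = 0.431). For Egr1 and Arc, mouse 3 stayed close to the Control mice and mice 6, 10 and 11 were far below them. Fos and Fosb had log2 fold changes of -0.49 and 0.17, with overlapping groups, so the list did not move as one.

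The list of 29 glucocorticoid-induced transcripts pointed the other way. In TRAP, 15 members were higher and 0 lower at an unadjusted p under 0.05, 24 had a log2 fold change above 0, and the median was 0.84. Only Mt1 and Mt2 were called. Fkbp5, a co-chaperone of the glucocorticoid receptor, was at 80.5, 88.5 and 70.3 CPM in Control_TRAP and 126, 140.4, 160.4 and 134 CPM in EtOH + ABT-888_TRAP (log2 fold change 0.83, SE 0.16, adjusted p = 0.051). Sgk1, a kinase induced by corticosteroids, was at 67.2, 76.4 and 76.7 CPM and 108, 115, 173 and 146 CPM (0.90, adjusted p = 0.0674). For both, every treated mouse was above every Control mouse. In total-RNA of the same mice, 23 members were higher and 0 lower at an unadjusted p under 0.05, 5 were called, and the median was 1.10. Over all transcripts, 8.55% were higher and 7.39% lower in total-RNA by that criterion. Fkbp5 and Sgk1 had log2 fold changes of 1.46 and 1.72 there. Tsc22d3, a leucine zipper protein induced by glucocorticoids, was at 36.6, 28.1 and 29.1 CPM in Control_TRAP and 40.1, 40.1, 40.4 and 40.9 CPM in EtOH + ABT-888_TRAP (log2 fold change 0.38, adjusted p = 0.409), and at 71, 54.9 and 60.1 CPM and 116, 143, 199.9 and 131 CPM in total-RNA (1.25, adjusted p = 0.045). The tested difference between the sample types was lower in TRAP for 7 of the 29 and higher for 0 at an unadjusted p under 0.05, against 2.26% lower and 1.62% higher over all transcripts. Without mouse 4 the 15 became 8.

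**Figure D3:**
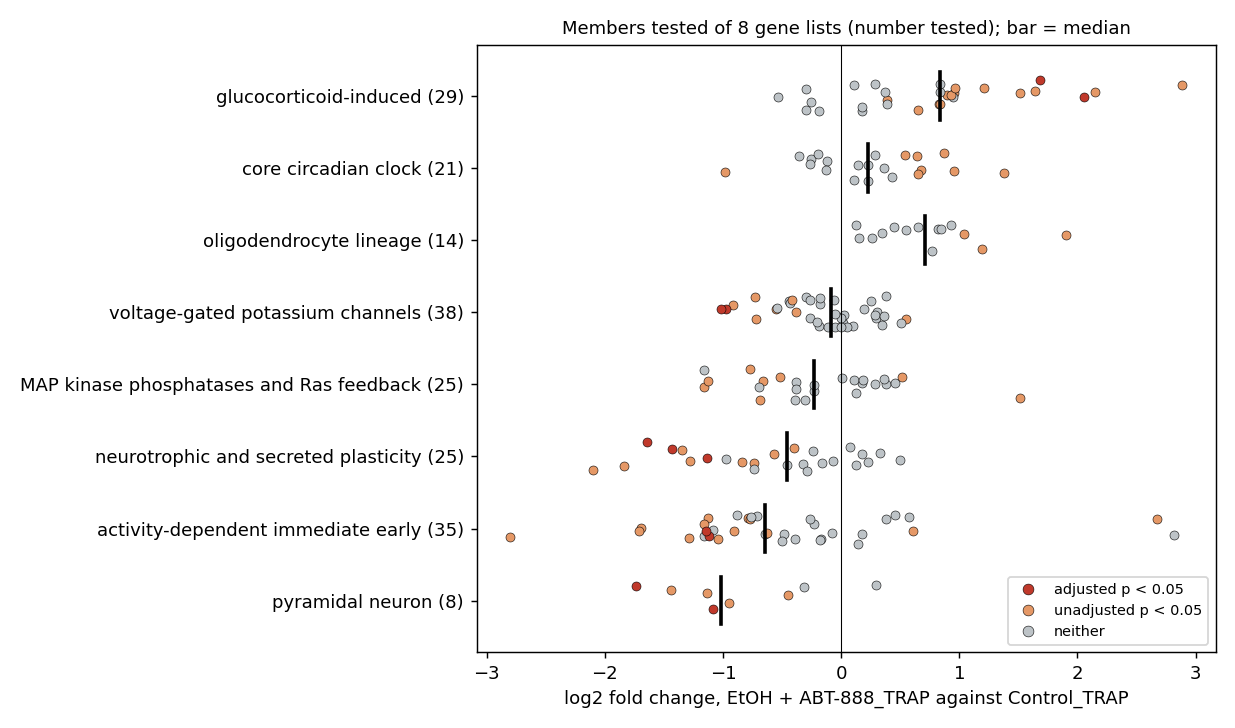
Log2 fold change of EtOH + ABT-888_TRAP against Control_TRAP for every tested member of 8 gene lists, coloured by test result, with a bar at each median. The glucocorticoid list sits mostly to the right (median 0.84) and the pyramidal, immediate early and neurotrophic lists mostly to the left (medians -1.02, -0.65 and -0.46), while the potassium channels lie around 0 (-0.09).

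The remaining lists held no called member. Of 21 core clock transcripts, 7 were higher and 1 lower at an unadjusted p under 0.05, with a median log2 fold change of 0.23. Tef, a clock output factor, was at 403, 499.6 and 377 CPM in Control_TRAP and 551, 749, 1118 and 657 CPM with EtOH + ABT-888 (adjusted p = 0.129). Per1, the clock gene that glucocorticoids also induce, was at 75.2, 79.8 and 69.8 CPM and 110.2, 81.7, 309.7 and 72.8 CPM, and Ciart at 14.8, 9.69 and 9.78 CPM and 13.8, 14.6, 62.2 and 25.8 CPM. Mouse 10 was far above all others for Per1 and Ciart. Of 25 MAP kinase phosphatases and Ras feedback proteins, 2 were higher and 6 lower, with Spred3 (log2 fold change -1.12, adjusted p = 0.0768) at the smallest p. The counts were 3 higher and 3 lower of 26 heat shock and cold-inducible transcripts, 4 and 3 of 39 of insulin receptor, Akt and FoxO signalling, 3 and 3 of 29 of mTOR control, 1 and 0 of 21 ATF4 and unfolded protein response targets, and 3 and 0 of 24 of cholesterol synthesis. Over all transcripts tested, 6.32% were higher and 5.73% lower by the same criterion.

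Of the 20 tested members of the PARP family and the enzymes that remove its product, 2 were higher and 1 lower at an unadjusted p under 0.05, and none was called. Parp1, the main target of ABT-888, was at 70.3, 81.1 and 84 CPM in Control_TRAP and 114, 81.4, 17.9 and 85 CPM in EtOH + ABT-888_TRAP (log2 fold change -0.07, SE 0.41, adjusted p = 0.969). Mouse 10 was far below the other treated mice and the Control mice. Parp2 was at 13.3, 10.3 and 17.9 CPM and 16.8, 19.7, 9.13 and 15.1 CPM, with overlapping groups. Parp3 had the smallest p of the list (log2 fold change 1.11, adjusted p = 0.18). ABT-888 blocks the enzymes' activity, which RNA does not measure.

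Of the other marker lists, the cortical layer list (17 tested) had 0 higher and 5 lower members at an unadjusted p under 0.05 and a median log2 fold change of -0.22, and the interneuron list (12) had 0 and 3 and -0.31. Astrocyte markers (12) had 0 and 0 with a median of 0.23, microglial markers (13) 0 and 1 with 0.24, and endothelial and pericyte markers (13) 2 and 0 with 0.58. Oligodendrocyte markers (14) had 3 and 0, and the 3 became 7 with no filter on low counts and 6 without mouse 6 or mouse 10. The summed microglial level was 27.2 to 52.4 CPM in Control_TRAP and 21.2 to 81.3 CPM in EtOH + ABT-888_TRAP, and Cx3cr1, P2ry13 and Itgam had no read in 1 or more treated libraries, as had the endothelial Tek and Anpep in mouse 6. In total-RNA the same list was at 422 to 438 CPM in Control and 179 to 351 CPM in EtOH + ABT-888, with 8 of 13 lower at an unadjusted p under 0.05. The summed astrocyte level was 713 to 1417 CPM in Control_TRAP and 562 to 1475 CPM in EtOH + ABT-888_TRAP, and that of endothelial and pericyte markers 16.2 to 35.4 CPM and 23.4 to 53.4 CPM.

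The same mice gave total-RNA, which shows whether a transcript also moved in the tissue as a whole. In EtOH + ABT-888_total-RNA against Control_total-RNA, 37 transcripts were called (0.263%) and 2243 (15.9%) had an unadjusted p under 0.05. Of the 67 transcripts called in TRAP, 64 (95.5%) had the same sign in total-RNA, where 71.3% of all transcripts had the same sign in both, and 9 were called there. Total-RNA comes from the same mice as TRAP, so it is no independent replicate. Of the 67, 64 lay further from 0 in TRAP, and the median size of their log2 fold change, sign aside, was 1.28 in TRAP and 0.59 in total-RNA. The transcripts were chosen in TRAP, which favours larger values there. Tgfbr3 (0.86 in TRAP and 0.99 in total-RNA), Kcnv1 (-1.02 and -1.17) and Nptx2 (-1.13 and -1.21) were the 3 that lay further from 0 in total-RNA.

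The difference between the sample types was tested in a model over the 14 libraries of the 7 mice, and 1 transcript was called (0.00711%). Gm11549, a predicted gene annotated as protein-coding on chromosome 3 from 36515057 to 36521813, was at 20.1, 20.3 and 24.2 CPM in Control_TRAP and 9.92, 8.86, 9.76 and 8.79 CPM in EtOH + ABT-888_TRAP (log2 fold change -1.19, SE 0.21, adjusted p = 0.0348). In total-RNA it was at 39.3, 34.3 and 37.7 CPM in Control and 38, 48.3, 45.5 and 52 CPM in EtOH + ABT-888 (log2 fold change 0.31, adjusted p = 0.282). The effect in TRAP minus that in total-RNA was -1.51 on the log2 scale (adjusted p = 0.0233), and a fit that blocked on the mouse gave an adjusted p of 0.0487. This call was lost without mouse 1, 4, 6, 7 or 11, each leaving 0 calls and 326 to 603 transcripts at an unadjusted p under 0.05. Spon1 (-1.28 in TRAP and 0.07 in total-RNA) and Camk1g (1.05 and -0.12) were the other called transcripts of opposite sign. Their interaction did not pass the adjustment (adjusted p = 0.294 and 0.22), nor did it in the fit that blocked on the mouse (0.0782 and 0.077). The 8 pyramidal markers had a median difference of -0.92 between the sample types, with 6 lower and 0 higher in TRAP at an unadjusted p under 0.05, where 2.26% of all transcripts were lower and 1.62% higher.

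**Figure D4:**
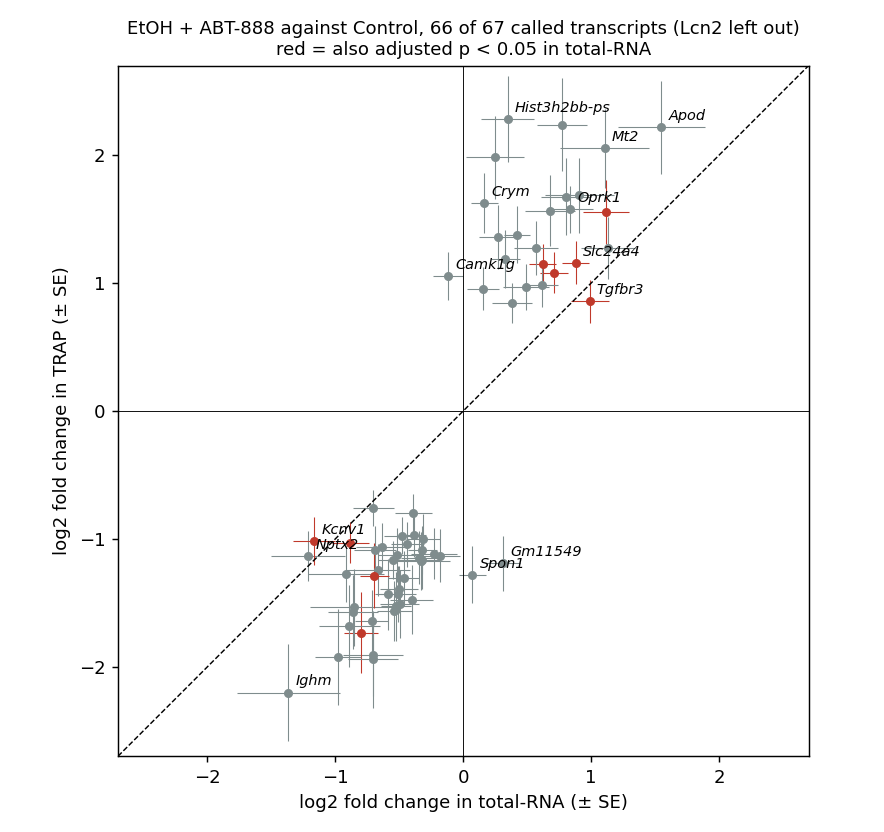
Log2 fold change with its SE of EtOH + ABT-888 against Control in TRAP (vertical) and in total-RNA (horizontal) for 66 called transcripts, with Lcn2 left out for having no read in Control_TRAP. Points further from 0 than the dashed line of equality moved more in TRAP, red marks the transcripts also called in total-RNA, and Gm11549, Spon1 and Camk1g have opposite signs in the 2 sample types.

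Set beside EtOH_TRAP, the called transcripts were mostly at similar levels. When the 2 ethanol groups were tested against each other, 0 transcripts were called (0%) by edgeR's quasi-likelihood test, exactTest or DESeq2, with 136 at an unadjusted p under 0.05. The 136 became 914 without mouse 10 and 319 without mouse 9, still with 0 called by the quasi-likelihood test. For 60 of the 67 the difference between the treatments was within 0.5 on the log2 scale, and 3 of the 67 had an unadjusted p under 0.05. The share of all transcripts within 0.5 was not computed. Wfs1 was at 162 ± 29 CPM (SD) in Control_TRAP, 419 ± 110.1 CPM with EtOH + ABT-888 and 725 ± 248 CPM with EtOH (difference -0.80, SE 0.25, adjusted p = 1). Crym was at 29.6 ± 8.82, 90.5 ± 15.9 and 144 ± 56.7 CPM (difference -0.68, SE 0.25). Pld5, a phospholipase D family member, was at 47.5 ± 5.93, 22.1 ± 3.34 and 13.9 ± 5.19 CPM (difference 0.66, SE 0.27). In these 3 the mean with EtOH + ABT-888 lay between those of Control and EtOH, without passing the adjustment. The other 4 with a difference beyond 0.5 had the opposite order, with EtOH + ABT-888 further from Control than EtOH. They were Nptx2 (difference -0.71, SE 0.36), Gcnt4 (-0.57), Ubash3b (-0.54) and Lcn2, at a mean of 3.49 CPM with EtOH + ABT-888 and 2.38 CPM with EtOH. Of all 67, 36 lay nearer to Control with EtOH + ABT-888 than with EtOH and 31 lay further from it. The 67 were chosen for their distance from Control with EtOH + ABT-888, which favours transcripts where that group lies further out. The same split over all transcripts was not computed. Both treatments are read against the same Control_TRAP libraries in these values.

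Mice of the treated group differed in how far they stood from Control. Over the 66 called transcripts with reads in Control_TRAP, the median log2 ratio to the Control mean, signed by the direction called, was 0.99 in mouse 3, 1.42 in mouse 6, 1.47 in mouse 10 and 1.29 in mouse 11. Mouse 3 was the nearest of the 4 to Control in 40 of the 67 and mouse 10 the farthest in 31. The transcripts were called with these mice, so the values describe the mice and test nothing.

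The strand setting of the counting is not given in the sources used here, so reads of overlapping genes on opposite strands cannot be told apart. Exons of 20 of the 67 overlap such a gene, and their values are uncertain to that extent, among them Nrn1, Ivns1abp, Mt2, Cpne9, Pik3ip1, Fam117a, Fmnl1, Vxn, Nwd2, Kcnh7, Ptcd1, N4bp2, Chmp1b, Crem, Grm2, Hrh3, C1ql3, Gcnt4 and Rgs6. Further called transcripts fell. Ivns1abp, which binds actin, was at 602, 641 and 521 CPM in Control_TRAP and 301, 310.0, 260.2 and 314 CPM with EtOH + ABT-888 (log2 fold change -0.97, SE 0.14, adjusted p = 0.0223), and the formin Fmnl1 at 141, 141 and 114 CPM and 77.3, 48, 42.4 and 53.8 CPM (log2 fold change -1.24, SE 0.20, adjusted p = 0.0277). All treated mice were below all Control mice in these and in the following. Vxn was at 136, 139 and 169 CPM and 86.4, 48.5, 45.5 and 57.5 CPM (log2 fold change -1.31, SE 0.21, adjusted p = 0.0277). Plcxd2 was at 64.6, 56.6 and 70.8 CPM and 33.2, 24.6, 32.3 and 32.8 CPM (log2 fold change -1.04, SE 0.18, adjusted p = 0.0322). Nwd2 was at 14.1, 12.9 and 18.8 CPM and 4.84, 3.75, 2.32 and 5.3 CPM (log2 fold change -1.91, SE 0.32, adjusted p = 0.0322). Others, with their log2 fold changes, were P4ha1, a collagen prolyl hydroxylase (-1.28), Ubash3b (-1.51), Chmp1b (-1.53), Nrep (-1.57), the malic enzyme Me2 (-0.80), Ago4 of the microRNA pathway (-1.18), the pseudokinase Trib2 (-1.54), Gcnt4 (-1.92) and Ankrd34c (-1.94).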

How the data were processed

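Per the labels and the study's methods, the authors depleted ribosomal RNA, sequenced paired-end libraries, aligned them to mm10 with STAR and deposited raw counts per gene from featureCounts, without normalization. Versions, strand setting and handling of multi-mapping reads are not given in the sources used here. The table holds 39056 genes, of which 38872 were found in GENCODE release M21 for names and positions. The study's filter (at least 500 counts in total, detected in at least 3 libraries) kept 14072. Tests used edgeR 4.0.16 under R 4.3.3 (TMM, quasi-likelihood test, Benjamini-Hochberg), over the libraries of the groups compared. Levels are CPM from 1 TMM scaling of all 22 libraries. exactTest, DESeq2 1.42.0 and further settings were alternatives. The tests were also run on simulated data with changes set only in transcripts of high counts, and the outcome is not given here. TRAP and total-RNA libraries pair by the animal number in the labels. After removal of group means, libraries of the same mouse correlated with r of 0.102 to 0.622 across genes, above the highest r with another mouse for all but mouse 6 (0.117 against 0.140). Transcripts described in full are the 12 with the smallest p in each direction and called list members, and all others called may be named, as may list members at an unadjusted p under 0.05, Camk2a and Slc17a7. Further genes given with values (such as Oprm1, Pdyn, Parp1, Parp2, Arc, Fos and Fosb) were chosen after their values were seen. Some items are not reported here. The gene lists and the transcripts were chosen with earlier results of these data known. Depth was 6570957 to 21080724 counted reads per library, and 3 reads were used as the floor.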

Additional observations from a re-analysis of the deposited data

Results flagged for a closer look

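Single EtOH + ABT-888_TRAP libraries stood apart from the other 3 of their group by Dixon's test, which flags about 1 in 20 groups of 4 by chance, in 5 of the 67 called transcripts. Mouse 3 was apart in 4 of them. Rph3a was at 352 CPM in mouse 3 against 216 to 225 CPM in the others, Spata13 at 164 CPM against 114 to 116 CPM, Hrh3 at 199.8 CPM against 225 to 229 CPM, and Lcn2 at 0.492 CPM against 4.3 to 4.8 CPM. Plcxd2 was at 24.6 CPM in mouse 6 against 32.3 to 33.2 CPM. In each case the library that stood apart was still outside the range of the Control_TRAP libraries.

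Gm11549 is shown here because its effect differed between TRAP and total-RNA by a tested interaction of -1.51 on the log2 scale.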

How the results depend on the processing

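The number of transcripts called in TRAP (67, with 26 higher and 41 lower) depended on the test and on single libraries. It was 318 (143 and 175) with exactTest, 420 (219 and 201) with DESeq2, 454 (216 and 238) with no filter on low counts, 156 (64 and 92) at an adjusted p under 0.1, 171 (66 and 105) with the glial and vascular marker covariate, and 33 (26 and 7) in a single fit over the 11 TRAP libraries. RLE factors gave 67 and filterByExpr 66. Leaving out each library in turn gave 0 to 373 calls, 0 to 173 higher and 0 to 200 lower. The 37 calls in total-RNA became 544 with exactTest, 621 with DESeq2, 544 with no filter, 70 with filterByExpr and 207 at an adjusted p under 0.1, and 0 to 870 with a library left out. The 1 call for the difference between TRAP and total-RNA became 12 with DESeq2 and 3 with no filter, and 0 to 4 without a mouse. With the mouse as a replicate block it stayed at 1 call, while transcripts at an unadjusted p under 0.05 went from 546 to 1173. EtOH + ABT-888_TRAP tested against EtOH_TRAP gave 0 calls by edgeR's quasi-likelihood test under each alternative run, with 136 transcripts at an unadjusted p under 0.05 in the fit with all libraries. Leaving out a library moved the 136 to between 100 and 914, the highest without mouse 10, where exactTest gave 4 calls. The sign of each of the 67 log2 fold changes was the same under every alternative run. The list counts under each alternative were added after seeing the data. Why the counts moved was not tested. With 3 and 4 mice, and 6570957 reads in the shallowest library, small differences and low transcripts were not resolved.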

Other observations

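Members of the heat shock and cold-inducible list lay on both sides of 0 at an unadjusted p under 0.05, none passing the adjustment by edgeR's quasi-likelihood test. The cold-inducible RNA-binding proteins Cirbp and Rbm3 were higher in mean. Cirbp was at 48.5, 49.5 and 35.6 CPM in Control_TRAP and 33.6, 102, 167 and 80.0 CPM in EtOH + ABT-888_TRAP (log2 fold change 1.13, adjusted p = 0.267), and Rbm3 at 55, 39.3 and 25.3 CPM and 38.8, 88.4, 122 and 101 CPM (1.16, adjusted p = 0.195). Mouse 3 was below or within the Control range for both, and mice 6, 10 and 11 were above it. The co-chaperone Dnajb1 had a log2 fold change of 0.40. The chaperones Hspa4, Hsph1 and Fkbp4 were lower in mean, with log2 fold changes of -0.45, -0.39 and -0.38. In total-RNA, Cirbp and Rbm3 had log2 fold changes of 1.13 and 1.06 (adjusted p = 0.158 and 0.102).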
